A study of Mus musculus with 2 samples.

Results

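C-type lectin receptors were described in dendritic cells derived from mouse bone marrow (GMDC in the submitters' naming). All genes whose symbol in the array's platform annotation starts with Clec or Cd209 were taken, from every probe set with exactly 1 such symbol, which gave 39 probe sets of 41345 and 37 genes of 22180. The cells came from 2 cultures. One received medium conditioned by topotecan-treated E0771 cells, a mouse mammary tumour line (topotecan inhibits topoisomerase I), and the other is labelled control. Each culture was measured on 1 oligonucleotide array, which leaves every value without a replicate error and every difference untested. The labels give neither the strain and age of the mice nor the medium of the control culture. What topotecan did to the tumour cells and what any medium from such cells would do therefore cannot be told apart.

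C-type lectin receptors carry a fold that, in many members, binds sugars in a calcium-dependent way, and myeloid cells use them to recognise fungi, mycobacteria and dead cells. Activating members such as dectin-1, dectin-2 and Mincle signal through the kinase Syk and the CARD9, BCL10 and MALT1 complex, either by a tyrosine motif in their own tail or through the Fc receptor gamma chain (Fcer1g). Inhibitory members such as DCIR and MICL carry a motif that recruits tyrosine phosphatases. The genes of the dectin-1 and dectin-2 groups lie in clusters on mouse chromosome 6 and those of the DC-SIGN group on chromosome 8. Of the 37 genes here, 23 lie on the first and 9 on the other in RefSeq's annotation of assembly GRCm38.p6.

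The 4 windows printed next are the 250 bases before the start site of genes on which the results turn: Clec4e, the member that was higher with conditioned medium, its neighbour Clec4d, which was nearly level, and Clec4b1 and Clec12a, the lowest members. The sequences are from RefSeq (GRCm38.p6), 5′ to 3′ on the strand of the gene, and the assembly behind the array values is not given in the sources used here. Capitals mark matches, on either strand, to motifs of 5 transcription factor classes: C/EBP (TTNNGNAA), AP-1 (TGANTCA), the core of the interferon-stimulated response element (GAAANNGAA), PU.1 (GAGGAAGT) and NF-kB (its common consensus).
Clec4e, chr6:123289872-123290121, minus strand: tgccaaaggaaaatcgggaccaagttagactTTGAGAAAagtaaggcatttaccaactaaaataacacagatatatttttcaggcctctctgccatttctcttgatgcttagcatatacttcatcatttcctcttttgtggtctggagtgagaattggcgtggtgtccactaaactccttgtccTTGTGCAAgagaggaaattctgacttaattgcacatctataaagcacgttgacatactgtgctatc
Clec4d, chr6:123261857-123262106, plus strand: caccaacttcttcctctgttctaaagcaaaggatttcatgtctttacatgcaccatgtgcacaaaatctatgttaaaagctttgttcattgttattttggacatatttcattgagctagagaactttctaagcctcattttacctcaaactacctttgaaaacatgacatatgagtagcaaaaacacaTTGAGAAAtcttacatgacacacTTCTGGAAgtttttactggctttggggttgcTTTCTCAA
Clec4b1, chr6:123049712-123049961, plus strand: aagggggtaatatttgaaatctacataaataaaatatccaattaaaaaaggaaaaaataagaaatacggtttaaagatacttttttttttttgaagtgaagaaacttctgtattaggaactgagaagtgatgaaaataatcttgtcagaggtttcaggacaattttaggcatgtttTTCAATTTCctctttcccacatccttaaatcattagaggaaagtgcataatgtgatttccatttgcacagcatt
Clec12a, chr6:129349994-129350243, plus strand: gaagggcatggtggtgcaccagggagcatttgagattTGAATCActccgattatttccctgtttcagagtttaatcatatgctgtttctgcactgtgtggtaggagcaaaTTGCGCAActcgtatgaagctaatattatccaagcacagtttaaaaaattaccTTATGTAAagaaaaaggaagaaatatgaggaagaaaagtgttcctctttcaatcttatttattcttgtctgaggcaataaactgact
Clec4e and Clec4d matched C/EBP only, Clec4b1 the interferon-stimulated response element only, and Clec12a both C/EBP and AP-1. The C/EBP match of Clec12a at positions -140 to -133 from the start site was found on both strands and is 1 site. A promoter was listed for 31 of the 37 genes. Among the 21 members with a promoter that passed the filter on low values (next paragraph), 13 held a C/EBP match, against 36.8% of all 32851 windows of this length. Of these 21, 3 held an AP-1 match (6.75% of all windows) and 3, Clec4b1, Clec2d and Clec12b, the interferon-stimulated core (7.13%). None of the 21 held a PU.1 or NF-kB match (2.44% and 7.25% of all windows). A member counted once even with more than 1 window, as Clec2i had, while the shares of all windows are per window, so the units differ. The C/EBP letters are loose, and a match describes the letters of the window and is not a binding site.

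Values are the deposited log2 intensities, and a level can be compared between the arrays but not between genes, because probe sets differ in how strongly they bind. A gene was kept when the higher of its 2 values reached 4.10, the median of all values on both arrays, and 25 of the 37 lectin genes (67.6%) passed, against 61.8% of all genes. Of these 25, 1 passed 2-fold upward with conditioned medium and 6 passed it downward. The corresponding shares of the 13712 kept genes were 8.63% higher and 6.84% lower. The lectin genes thus stood at 4.0% higher, below that background, and at 24.0% lower, above it, and neither share could be tested with 1 array per condition. The upward share turned with the limit. At 1.5-fold 5 members (20.0%) were higher and 7 (28.0%) lower, against 16.6% and 17.9% of all kept genes. At 3-fold 1 member (4.0%) was higher and 5 (20.0%) were lower, against 4.14% and 2.11%. The median log2 difference (conditioned medium minus control) of the 25 was 0.00, beside -0.07 for all kept genes, with 12 members above 0 and 12 below it. It was 0.11 over all 37, beside -0.04 for all genes. Clec4b1, Clec4a4, Clec12b and Clec2g passed the filter through 1 array alone, which favours genes that differ. Differences between probe sets of the same gene on these arrays had a pooled SD of 0.46, and 11 of the 25 members differed by less than that. This SD does not cover the spread between cultures.

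**Figure D1:**
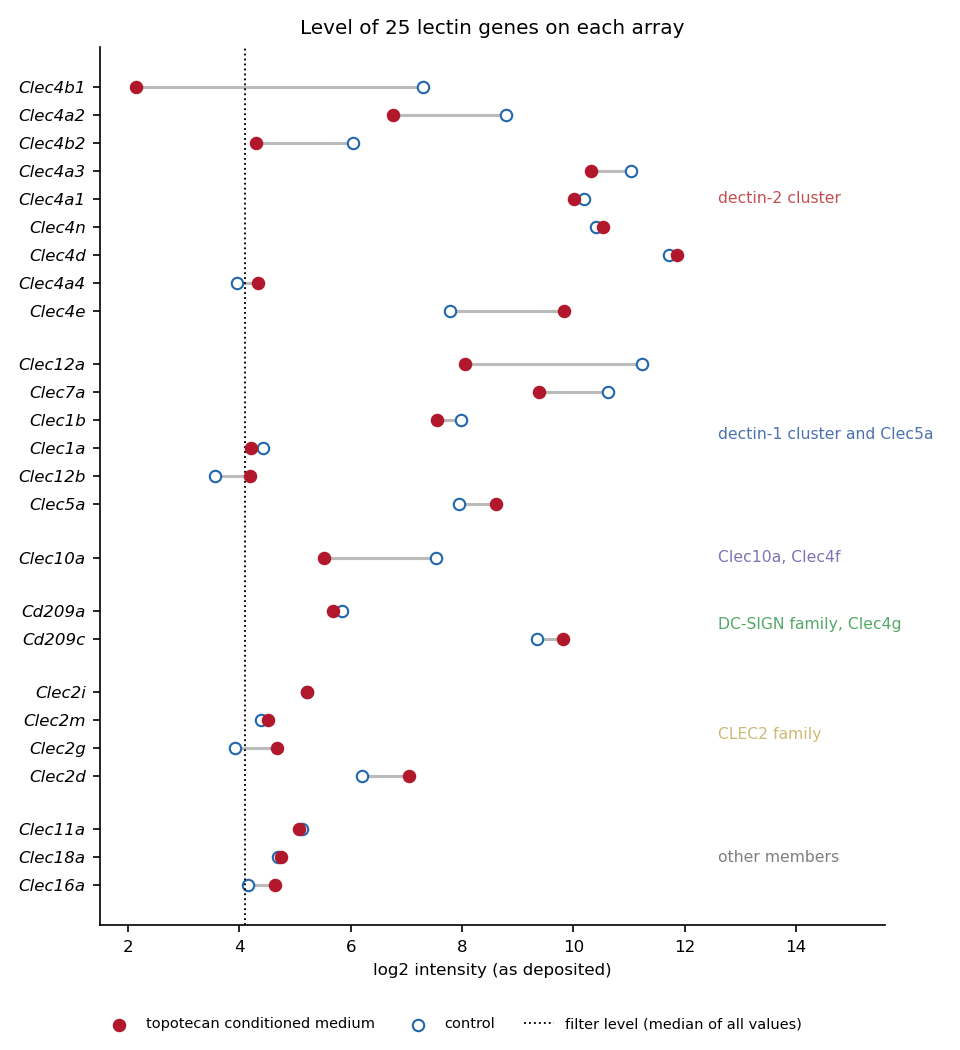
Log2 intensity (x axis) of the 25 kept lectin genes, with a filled point for the culture with topotecan conditioned medium and an open point for the control culture, 1 array each; the dotted line is the filter level of 4.10. Levels are to be compared within a row: Clec4b1, Clec12a, Clec4a2, Clec10a, Clec4b2 and Clec7a lie well to the left with conditioned medium, and Clec4e to the right.

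The cultures themselves differed in markers of other myeloid cells. Of 11 neutrophil markers, 9 were at least 2-fold lower with conditioned medium and 0 at least 2-fold higher. Cxcr2 had a difference of -0.95, and Ly6g went the other way (6.88 with conditioned medium and 6.14 in the control). The median log2 difference of the 11 was -2.99. Their summed linear intensities were 2548 with conditioned medium and 10550.2 in the control. Among 9 macrophage and monocyte markers 3 were at least 2-fold lower (Csf1r, Ccr2 and Adgre1) and 1 higher (Ly6c2), with sums of 22341 with conditioned medium and 18871 in the control. Their median log2 difference was -0.14, with 6 of the 9 below 0. Such sums are weighted towards the brightest probe sets. The dendritic cell markers were mixed, with 5 of 11 kept genes at least 2-fold higher and 3 lower. The higher genes were Cd86 (17.0-fold), Cd80 (9.07-fold), H2-Aa, Irf4 and H2-Ab1, and the lower ones Batf3, Flt3 and Itgax. The dendritic cell markers summed to 7874 with conditioned medium and 3877 in the control. Their median log2 difference was 0.69, or 0.16 with low values raised to the filter level. The integrin gene Itgax was at 7.15 with conditioned medium and 8.18 in the control, and the class II gene H2-Aa at 10.94 and 9.06. Zbtb46, a transcription factor of conventional dendritic cells, lay under the filter level on both arrays (3.65 each), and Flt3 was at 3.15 with conditioned medium and 4.38 in the control. Flt3, 1 of the 3 lower dendritic cell markers, was 1.22-fold lower once its low value was raised to the filter level. In such bulk RNA, fewer cells of a type and less RNA per cell cannot be told apart. Of the other lists, 2 of 4 mast cell and basophil markers (Cpa3 and Fcer1a) and 1 of 3 kept B cell markers (Cd79b) were at least 2-fold lower. Fcer1a (3.09 with conditioned medium and 4.39 in the control) was 1.22-fold lower once its low value was raised to the filter level. Bst2, 1 of 5 plasmacytoid dendritic cell markers, and Krt19 and Cdh1, 2 of 3 kept genes listed as mammary tumour markers, were at least 2-fold higher. Cdh1 was at 10.21 with conditioned medium and 6.42 in the control, and Krt19 at 6.59 and 4.44. Both thus lay above the filter level in the control culture too, and whether tumour cells were present was not tested. The other kept tumour marker, Krt8, had a difference of -0.19, and Epcam and Krt18 lay under the filter level on both arrays. The part of all these markers in the lectin differences was not tested.

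The dectin-2 cluster held members at both ends of the range. Clec4e encodes Mincle, a receptor for mycobacterial cord factor and for a nuclear protein released by dead cells. It was at 9.83 with conditioned medium and 7.78 in the control, a 4.16-fold higher value, and 358 of the 13712 kept genes had a larger upward difference. Clec4d, which encodes the Mincle partner MCL, was at 11.86 with conditioned medium and 11.72 in the control. Clec4n, the gene of the mannan receptor dectin-2, was at 10.54 and 10.40 in the same order. These 2 genes differed by 0.13 each on the log2 scale, well inside the SD between probe sets. Mincle and MCL are known to act as a pair, and here 1 of the 2 genes differed.

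Clec4b1 had the lowest difference of all 37 genes as deposited. It encodes DCAR, an activating receptor that pairs with the Fc receptor gamma chain. Its log2 intensity was 2.14 with conditioned medium and 7.30 in the control, which is 35.6-fold lower as deposited. The value with conditioned medium lay under the filter level and may be background, so that size is uncertain. Raised to that level, the gene was 9.19-fold lower, next to Clec12a (log2 differences of -3.20 and -3.19), and 22 of the 13712 kept genes were lower when treated in the same way. Its relative Clec4b2, the gene of DCAR1, was at 4.29 with conditioned medium, just above the filter level, and 6.04 in the control, 3.37-fold lower. Both activating DCAR genes were therefore lower, while the activating genes Clec4e, Clec4d and Clec4n were not.

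The DCIR genes of the same cluster were uneven. Clec4a2 encodes DCIR itself, an inhibitory receptor of dendritic cells and other myeloid cells, and was at 6.76 with conditioned medium and 8.78 in the control, 4.05-fold lower. Clec4a3 was at 10.33 with conditioned medium and 11.03 in the control, a log2 difference of -0.71 that lay short of 2-fold. Clec4a1 had a difference of -0.19 (10.01 with conditioned medium and 10.19 in the control), and Clec4a4 one of 0.39 (4.34 and 3.95). Thus 1 of the 4 DCIR genes passed 2-fold. The Clec4a and Clec4b genes resemble each other in sequence, and cross-hybridisation between them was not tested.

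Position in the cluster was not used to choose the members. In the order of GRCm38.p6 the 9 genes run Clec4a1, Clec4a3, Clec4a4, Clec4b1, Clec4a2, Clec4b2, Clec4n, Clec4d and Clec4e. The 3 genes of this cluster that were at least 2-fold lower, Clec4b1, Clec4a2 and Clec4b2, are next to each other among the measured genes. Clec4n and Clec4d, which come after them, were nearly level, and Clec4e, the last, was the higher one. No test of this arrangement was made.

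**Figure D2:**
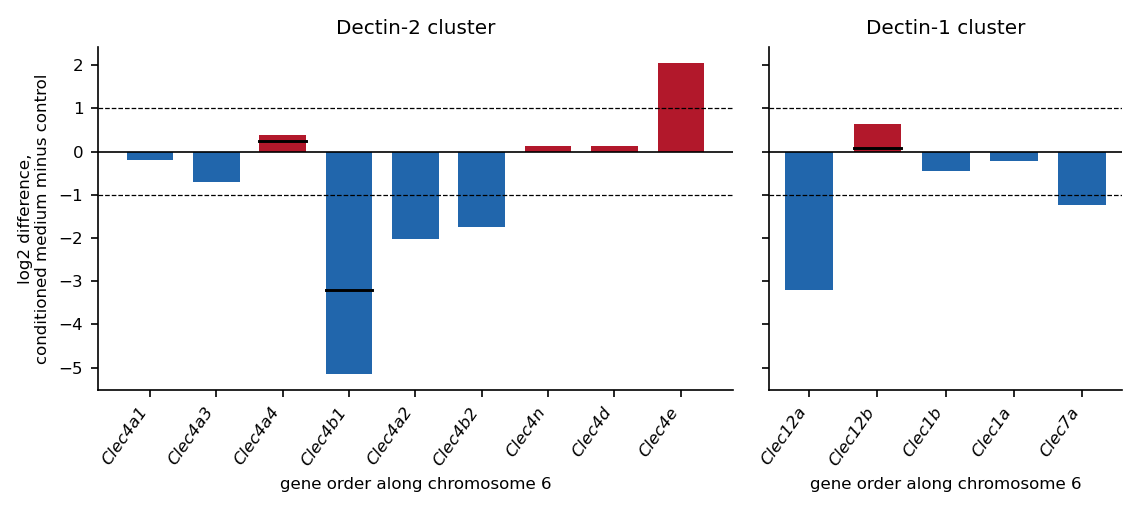
Log2 difference, conditioned medium minus control (y axis), of the measured genes of the dectin-2 cluster (left, 9 genes) and the dectin-1 cluster (right, 5 genes) in their order along chromosome 6, without distances; dashed lines mark 2-fold and a black line across a bar the difference with low values raised to the filter level. Clec4b1, Clec4a2 and Clec4b2 stand side by side at -5.16, -2.02 and -1.75, and Clec4e at the end of the row at 2.06.

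Among the receptors of the dectin-1 cluster, Clec12a had the lowest difference. It encodes MICL, an inhibitory receptor of granulocytes, monocytes and dendritic cells that recognises uric acid crystals. Its log2 intensity was 8.05 with conditioned medium and 11.24 in the control, 9.15-fold lower, with both values far above the filter level. Only 28 of the 13712 kept genes had a lower difference. Clec7a, the gene of the beta-glucan receptor dectin-1, was at 9.38 with conditioned medium and 10.61 in the control, 2.35-fold lower, which made it the member nearest to the 2-fold limit among those past it.

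The other members of this group lay between the limits. Clec1b encodes CLEC-2, the podoplanin receptor best known from platelets, and was at 7.54 with conditioned medium and 7.98 in the control. The 4 platelet and megakaryocyte markers lay between the limits as well, with a median log2 difference of -0.21. Clec1a, which encodes a receptor for fungal melanin, was close to the filter level on both arrays (4.20 with conditioned medium and 4.43 in the control). Clec12b, an inhibitory receptor gene, was at 4.19 with conditioned medium and 3.56 in the control, and its difference of 0.63 became 0.09 with the low value raised to the filter level. Clec5a lies elsewhere on chromosome 6 and encodes MDL-1, which signals through the adaptor DAP12. It was at 8.62 with conditioned medium and 7.95 in the control, a difference of 0.67.

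The inhibitory receptor genes Clec12a and Clec4a2 and the activating receptor genes Clec7a, Clec4b1 and Clec4b2 were thus all at least 2-fold lower with conditioned medium. The lower genes did not belong to 1 signalling class. Clec10a, the gene of the galactose-type lectin MGL1 of macrophages and dendritic cells, was lower too. It was at 5.52 with conditioned medium and 7.53 in the control, 4.03-fold lower. Mgl2, its close relative, was nearly level at 6.86 with conditioned medium and 7.04 in the control. Clec4f, a receptor gene of Kupffer cells, lay under the filter level on both arrays.

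Of the 7 genes of the DC-SIGN family and its neighbour Clec4g, 2 passed the filter and neither differed by 2-fold. Cd209a, the gene named mouse DC-SIGN, was at 5.67 with conditioned medium and 5.85 in the control. Its other probe set was at 2.87 with conditioned medium and 4.01 in the control, under the filter level, and the mean of both probe sets gave a difference of -0.65 in place of -0.17. Cd209c was at 9.82 with conditioned medium and 9.34 in the control, whereas its other probe set read 2.67 and 2.48. The 2 probe sets of Cd209c thus did not give the same picture of whether the gene was detected. Cd209b, Cd209d, Cd209e, Cd209g and Clec4g lay between 1.86 and 3.89 on both arrays. Cd209d had a difference of 1.22 and Cd209g also reached 2-fold, but at levels under the filter that are not told from background.

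The CLEC2 family, which includes ligands of NKR-P1 receptors on NK cells, had 4 kept genes of 7. All of their differences were at or above 0 and under 2-fold. Their median was 0.43, or 0.34 with low values raised to the filter level. Of these genes Clec2g passed the filter through the conditioned medium array alone. Clec2d encodes Clr-b, a widely expressed ligand that restrains NK cells. It was at 7.05 with conditioned medium and 6.21 in the control, 1.80-fold higher and the member closest to the 2-fold limit from inside. Clec2g was at 4.67 with conditioned medium and 3.93 in the control, and Clec2m at 4.51 and 4.39. Clec2i was listed at an identical value, 5.21, for both cultures. Clec3a and Cd209e did so too, at levels under the filter, and across the arrays 4.16% of all probe sets were identical. Clec2e, Clec2h and Clec2l lay between 2.94 and 4.09, under the filter.

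The remaining 6 members lie outside the known myeloid receptors, and none differed by 2-fold. Clec16a, whose protein acts in membrane traffic and the removal of mitochondria, was at 4.64 with conditioned medium and 4.16 in the control. Clec11a, a secreted growth factor of bone and blood precursors, was at 5.07 with conditioned medium and 5.12 in the control. Clec18a was at 4.74 with conditioned medium and 4.70 in the control. Clec3a, Clec3b (tetranectin) and the endothelial gene Clec14a lay between 3.23 and 3.81, under the filter on both arrays.

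**Figure D3:**
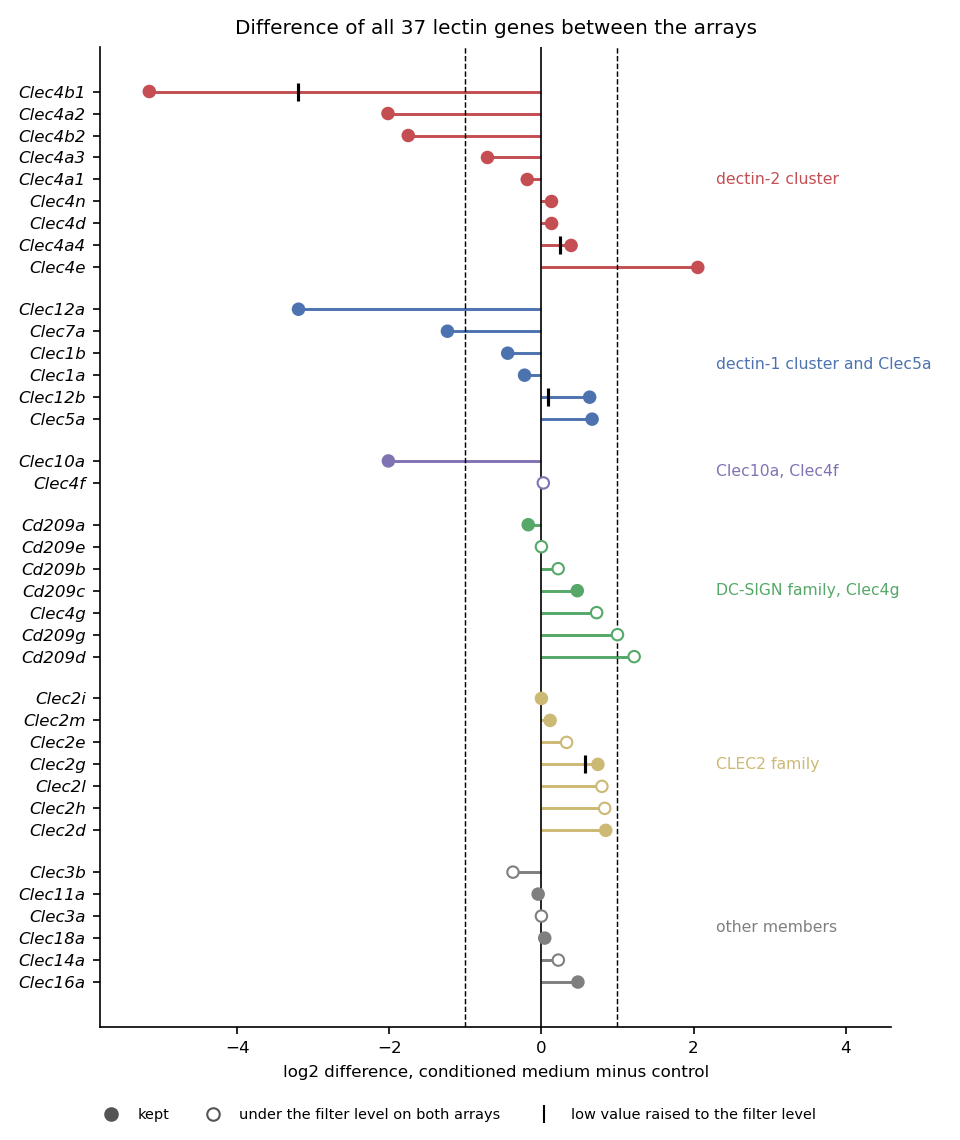
Log2 difference, conditioned medium minus control (x axis), of all 37 lectin genes by group; filled points are kept genes, open points genes under the filter level on both arrays, black ticks the difference with low values raised to that level, and dashed lines mark 2-fold. The 6 genes past the lower limit belong to the dectin-2 cluster, the dectin-1 cluster and the galactose-type group, and Clec4e is the only kept gene past the upper limit.

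Among the genes through which these receptors signal, the listed NF-kB subunits Rel and Rela were higher with conditioned medium. The adaptor gene Fcer1g differed little. Of 24 listed signalling partners 21 had a probe set with a single symbol, and all 21 were kept. With conditioned medium 4 of them passed 2-fold upward and 1, Plcg2, downward, where the shares of all kept genes were 8.63% and 6.84%. The list was chosen with earlier results of these data known, so its counts are no measure of an excess. Of the 4, Ccl3 is an output of the pathway. The median log2 difference was 0.18. Fcer1g, the adaptor of Mincle, dectin-2 and DCAR, was at 12.18 with conditioned medium and 12.13 in the control, so it was nearly level while Clec4e was higher and Clec4b1 lower. Syk was at 5.41 with conditioned medium and 5.19 in the control. Card9, the scaffold that couples Syk to NF-kB, had a difference of -0.76 (4.66 with conditioned medium and 5.41 in the control).

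Of the 21 partners 14 had a difference above 0, and 4 of these passed 2-fold: Rel, Rela, Malt1 and Ccl3. Their place in the pathway is no result, because the list was chosen with earlier results of these data known. Rel was at 6.77 with conditioned medium and 4.72 in the control, 4.15-fold higher. Rela, another NF-kB subunit, was at 6.95 with conditioned medium and 5.25 in the control, 3.23-fold higher, and Malt1, the protease of the CARD9 complex, was 2.27-fold higher. The chemokine gene Ccl3, an output of the pathway named here after its value was seen, was 2.21-fold higher. These genes are shared with many other receptors. Plcg2, a phospholipase downstream of Syk, was 2.06-fold lower (4.20 with conditioned medium, close to the filter level, and 5.24 in the control), and Vav1 had a difference of -0.80.

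Other genes with a C-type lectin domain differed in both directions. Of 33 measured, 21 were kept. Of these, 5 passed 2-fold upward and 4 downward, beside the same 8.63% and 6.84% of all kept genes. This list too was chosen with earlier results of these data known. Their median log2 difference was -0.16. Mrc1, the mannose receptor gene, was at 7.01 with conditioned medium and 9.75 in the control, 6.69-fold lower. Ly75, the gene of the endocytic receptor DEC-205, was at 5.72 with conditioned medium and 4.43 in the control, 2.45-fold higher. The highest were Cd69, an early activation marker (11.43 with conditioned medium and 5.24 in the control), Klrk1, the gene of the activating receptor NKG2D (9.65 and 4.91), and Klra2, a member of the Ly49 family (10.18 and 6.62). After Mrc1 the lowest were Klrd1, the gene of CD94 (3.78 with conditioned medium, under the filter level, and 5.88 in the control), and the scavenger receptor gene Colec12 (5.09 and 6.27). The remaining genes past 2-fold were Asgr2 (1.16) and Klrb1f (-1.13), named after their values were seen. Ly49 and other NK receptor genes are also similar in sequence. Of 4 kept T and NK cell markers 1, Gzmb, was at least 2-fold higher, by 0.47 on the log2 scale once its low control value was raised to the filter level.

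**Figure D4:**
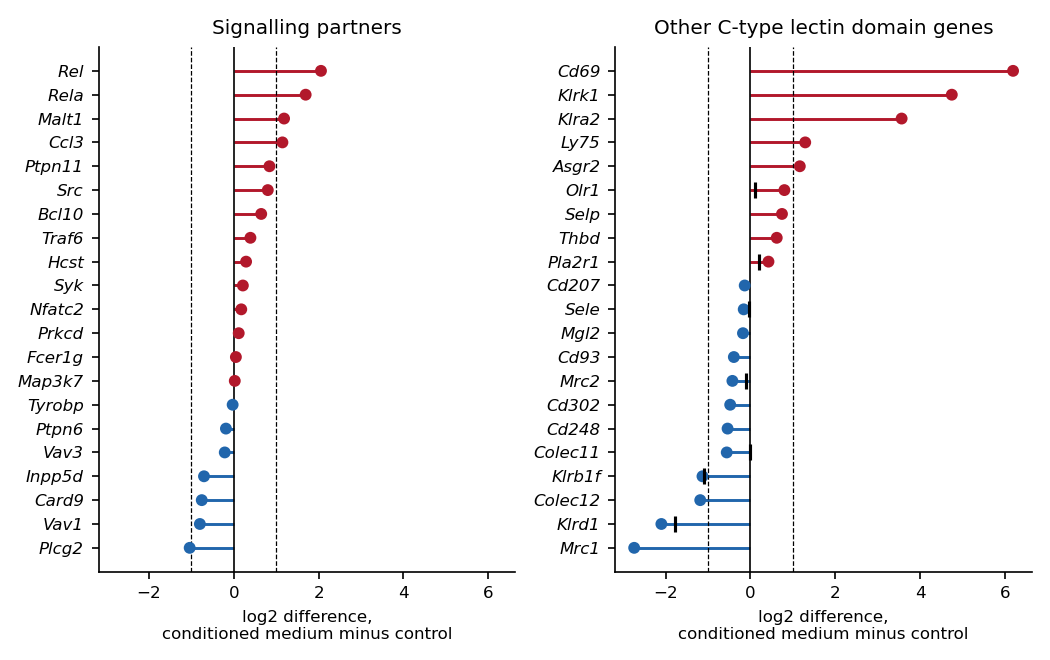
Log2 difference, conditioned medium minus control (x axis), of the 21 kept signalling partners (left) and the 21 kept genes with a C-type lectin domain outside the Clec and Cd209 names (right), 1 array per condition; dashed lines mark 2-fold and black ticks the difference with low values raised to the filter level. Rel and Rela lead the first list, and Cd69, Klrk1 and Mrc1 lie furthest out in the other.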

How the data were processed

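Per the labels' protocols, Trizol was used for total RNA and the Affymetrix procedure for biotinylated cRNA. Affymetrix Expression Console is named, per the submitters' processing notes; no version, algorithm or genome build is given in the sources used here. For each probe set and array the authors deposited 1 value, read as log2 intensity since the range was 0.02 to 13.50 with conditioned medium and -0.26 to 13.42 in the control; the base is an inference from that range. The medians were 4.09 with conditioned medium and 4.10 in the control, so a shift of most genes would not be seen.

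Gene names came from the platform annotation, and all 37 lectin genes had the same symbol in RefSeq's table of GRCm38.p6. Each gene was represented by its probe set with the highest mean. Genes were counted at a size of 2-fold among those whose higher value reached 4.10. Promoter windows were the first 250 bases of RefSeq's table, leaving out the 50 after the start. The members and lists were chosen with earlier results of these data known. All kept members were named, and from the other lists the 3 highest, the 3 lowest and 6 fixed genes. The alternatives were quantile normalization, a loess curve (fraction 0.3, 3 iterations), centring on kept genes, the mean of probe sets, 4 treatments of low values and limits of 1.5-fold and 3-fold. The number of arrays limits the precision. The counting was tested on simulated data. Python 3.11.15, numpy 2.4.6, pandas 2.3.3, statsmodels 0.14.6 and matplotlib 3.10.9 were used.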

Additional observations from a re-analysis of the deposited data

Results flagged for a closer look

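A signal lay in a probe set that no comparison used, because it carries the symbols of both Clec9a and Clec1b. It was at 6.60 with conditioned medium and 4.81 in the control, a log2 difference of 1.79 (3.45-fold higher). Clec9a encodes DNGR-1, a receptor of conventional dendritic cells for the actin of dead cells, and had no probe set of its own among those with 1 symbol. The probe set of Clec1b alone differed by -0.44, inside the SD of 0.46 between probe sets of a gene. The shared probe set was thus higher while that of Clec1b was not. Of the other listed genes that mark the same kind of dendritic cell, Batf3 was at 5.27 with conditioned medium and 7.30 in the control. Irf8 was at 9.54 and 10.42 in the same order. Xcr1 was at 4.26 with conditioned medium and 3.57 in the control, the control value under the filter level. With that value raised to the filter level, the log2 difference of Xcr1 was 0.16.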

How the results depend on the processing

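No paired analysis was possible because each condition had 1 array. The 6 lower members and the 1 higher member stayed past 2-fold in all 35 of their recomputed differences, under quantile normalization, loess, centring, the mean of probe sets and low values raised to the filter level. The mean of probe sets could not change a member with 1 probe set, as each of these 7 had. Raising low values could not change a member with both values above the filter level, as all of these but Clec4b1 had. Of all 125 recomputed differences of kept members 1 changed sign: Clec11a, at 0.03 after centring. With no filter all 37 lectin genes entered, 3 were at least 2-fold higher (Cd209d and Cd209g besides Clec4e) and the median was 0.11. With the filter at the 75th percentile 16 members were left and their median was -0.31. At 1.5-fold 5 members were higher and 7 lower, and of all genes 2274 were higher and 2458 lower; the share of higher members then lay above that of all genes and not below it. At 3-fold 1 member was higher and 5 lower, and of all genes 568 and 290. Clec4b1 moved to -3.20 and Clec12b to 0.09 with low values raised to the filter level, and Cd209a to -0.65 over the mean of its probe sets. With 1 array per condition, neither the spread between cultures nor that between animals was measured, and values near or under 4.10 are not told from background.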
